A study of Mus musculus with 8 samples.

Results

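The genes described here are Pwwp2a and Pwwp2b, which were deleted in the study, and 8 genes for the proteins of the nucleosome remodelling and deacetylase (NuRD) complex: Mta1, Mta2, Mta3, Hdac1, Hdac2, Rbbp4, Rbbp7 and Chd4. Their transcription start sites (TSSs) were read from CAGE-seq, which sequences the capped 5′ ends of RNA, here from isolated nuclei. CAGE-seq groups neighbouring 5′ ends into a tag cluster, and the dominant TSS is the base of the cluster with the most 5′ ends. A cluster was assigned to a gene when its dominant TSS lay on the gene's strand between 500 bp upstream of the annotated gene start and the gene end (GENCODE M21, mm10). By this rule the 10 genes held 44 of 32857 clusters in wild-type E14 cells, 44 of 33005 in clone A1 and 44 of 32870 in clone C7.

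E14 is a mouse embryonic stem cell (mESC) line, and the samples were wild-type E14 cells (3 libraries) and E14 cells of double PWWP2A/B knockout clones A1 (2 libraries) and C7 (3 libraries). Each knockout (DKO) line is a single clone, all lines were grown in medium with serum and LIF, and how the genes were deleted is not given in the sources used here. The authors merged the replicate libraries, and the deposited file holds 1 set of clusters for each line, so no value has a replicate error, and no difference between lines was tested. Every score in the cluster file is 0, so the data give where capped 5′ ends lay and not how many there were, and the depth behind a cluster is unknown. All 8 embryonic stem cell markers, Pou5f1, Sox2 and Nanog among them, had a promoter cluster in each line. The same was true of 3 of 5 fibroblast, 2 of 4 primitive endoderm, 1 of 4 trophoblast, 2 of 3 neural and 0 of 3 mesoderm markers, with equal counts in the 3 lines.

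NuRD joins a histone deacetylase module to a chromatin remodelling module. The MTA proteins are the scaffold of the deacetylase module, which also holds the deacetylases HDAC1 and HDAC2 and the histone chaperones RBBP4 and RBBP7, while CHD4 is the ATP-dependent remodeller. PWWP2A and its paralog PWWP2B read the H3K36me3 mark of transcribed gene bodies and bind the MTA, HDAC and RBBP proteins in a variant complex that lacks CHD4. In the study the question was whether this complex holds down starts of capped RNA inside genes. The authors reported such sites in wild-type cells too, with raised initiation from many of them in the clones. Genes of the complex itself are examined here for clusters inside genes, by position and not by level. The study also set aside internal sites in accessible or acetylated chromatin, which was not done here.

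Cluster presence and bounds at the 10 genes, as deposited for wild-type and DKO mESCs, were compared first. All 44 E14 clusters were overlapped by at least 1 bp in both clones (100%, 95% Wilson interval 92.0 to 100%, which covers counting error only), where 98.8% of all E14 clusters were. No member cluster was gained in both clones, against 0.444% of all clusters merged over the lines, and none was lost in both, against 0.228%. Start and end were equal in the 3 lines for 42 of 44 clusters (95.5%), against 98.5% of all shared clusters. Whether clusters were set for each line alone or jointly over the lines is not given in the sources used here, and if jointly, presence and bounds would be shared in advance. These counts are therefore not read as a likeness of the lines. The measures that differed more often were the position of the dominant TSS and the interquantile width, which is the span in bp between the 0.1 and 0.9 quantiles of the 5′ ends in a cluster.

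Clusters within 500 bp of the start of an annotated transcript of the gene were called promoter clusters, and the others exonic or intronic. E14 had 19 promoter, 23 exonic and 2 intronic clusters at the 10 genes, clone A1 had 18, 24 and 2, and clone C7 had 19, 23 and 2. The difference in A1 was a single Chd4 cluster whose dominant TSS lay 489 bp from the nearest transcript start in E14 and 18 bp further downstream in A1, beyond the 500 bp limit. The plot of clusters by gene shows how unevenly they were spread, with 30 of the 44 at Chd4 (68.2%). Without Chd4, 14 clusters were left, of which 3 lay outside promoters.

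**Figure D1:**
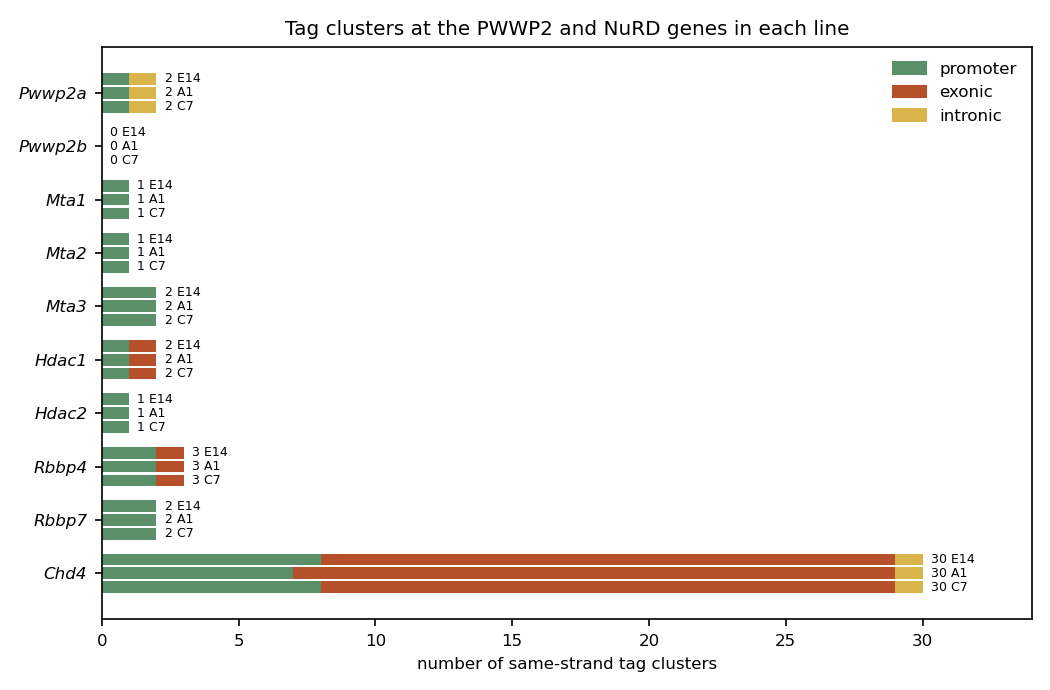
Number of same-strand tag clusters (x axis) at each of the 10 genes (y axis) in E14, clone A1 and clone C7, with bars split into promoter, exonic and intronic clusters. Chd4 had 30 clusters in each line, the other genes had 0 to 3, and Pwwp2b had none.

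Pwwp2a and Pwwp2b, the H3K36me3 readers and the targets of the knockout, were the first to be examined. Pwwp2a (ENSMUSG00000044950.7, chr11:43681998-43721491, plus strand) had 1 promoter cluster, at chr11:43681990-43682032, in every line. Its dominant TSS was base 43682027 for E14, A1 and C7 alike, 29 bp downstream of the annotated start and in the 5′ UTR of exon 1. Its interquantile width was 36 bp in E14, 36 bp in A1 and 35 bp in C7. The interquantile region ran from 43681992 to 43682027 in E14 and A1 and from 43681998 to 43682032 in C7, so both of its ends lay further downstream in C7. A second Pwwp2a cluster of 2 bp lay in the intron 6120 bp from the gene start, at chr11:43688117-43688118, also in all lines with the same dominant TSS.

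The RefSeq promoter window of Pwwp2a is shown because, of the deleted genes, only Pwwp2a had a promoter cluster in cells labelled as lacking the proteins. It covers chr11:43681748-43682047 on the plus strand of GRCm38.p6 (the assembly of mm10), and capitals mark GC boxes (GGGCGG) and CCAAT boxes on either strand.
Pwwp2a promoter: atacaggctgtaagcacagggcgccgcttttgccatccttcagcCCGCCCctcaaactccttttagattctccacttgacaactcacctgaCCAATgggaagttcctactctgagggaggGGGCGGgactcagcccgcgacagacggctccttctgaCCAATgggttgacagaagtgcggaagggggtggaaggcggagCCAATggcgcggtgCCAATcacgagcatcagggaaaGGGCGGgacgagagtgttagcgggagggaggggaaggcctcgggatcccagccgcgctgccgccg
The window held 3 GC boxes, at -235, -159 and -44 from the dominant TSS, and 4 CCAAT boxes, at -188, -122, -80 and -66. A match of letters is a description and not a measured binding site.

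Pwwp2b (ENSMUSG00000060260.13, chr7:139248482-139269903, plus strand) had no cluster on either strand in any line, wild-type E14 included. The nearest plus-strand cluster upstream had its dominant TSS 14516 bp away in Lrrc27, and the nearest downstream lay 119185 bp beyond the gene end in Inpp5a, at the same bases in the 3 lines. Of 21951 protein-coding genes, 47.7% likewise had no cluster in any line. The deposited positions thus do not check the knockout labels at either gene. Pwwp2a had a promoter cluster in the clones, which says nothing of the sequence or protein made from it. The presence of this cluster may be shared in advance if clusters were set jointly, and the depth behind it is unknown. Pwwp2b was without a cluster in E14 too.

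On their own strand, the scaffold genes Mta1, Mta2 and Mta3 had promoter clusters only. Mta1 (ENSMUSG00000021144.14) had its cluster at chr12:113098206-113098270, upstream of the annotated start. E14 and A1 shared the dominant TSS at 113098216, and C7 had it at 113098248, 32 bp further downstream, which was the longest move among all 44 clusters. The interquantile width stayed at 40 bp in E14, 38 bp in A1 and 40 bp in C7, so both bases lay inside the same region in every line. Mta2 (ENSMUSG00000071646.9) had its cluster at chr19:8941845-8942017 and E14, A1 and C7 shared the dominant TSS at 8941916. Its interquantile width was 80 bp in E14 and 105 bp in both clones, where the region reached further downstream.

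Mta3 (ENSMUSG00000055817.18) had a pair of promoter clusters. The narrow one, at chr17:83706159-83706162, had its dominant TSS on its last base in E14 and C7 and on its first base in A1. The wider one, at chr17:83706184-83706258, kept its dominant TSS at 83706231, with an interquantile width of 41 bp in E14, 24 bp in A1 and 41 bp in C7. Clone A1 was thus the narrower line at Mta3, while C7 and E14 were equal.

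Of the deacetylase genes, Hdac1 had a different dominant TSS at its promoter in 1 clone, and Hdac2 had the same one in all lines. Hdac1 (ENSMUSG00000028800.15, minus strand) had its promoter cluster at chr4:129542660-129542723. The dominant TSS was at 129542691 in E14 and C7 and at 129542678 in A1, 13 bp downstream. The interquantile width was 19 bp in E14, 35 bp in A1 and 18 bp in C7, so the wider region and the moved start were in A1 and not in C7. Hdac2 (ENSMUSG00000019777.16), at chr10:36974501-36974584, kept its dominant TSS at 36974547, 3 bp from the annotated start, and its width was 30 bp in E14 and 37 bp in both clones.

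Hdac1 also had a cluster in coding sequence. It covered 4 bp at chr4:129518910-129518913, in exon 9 of 14, 23803 bp from the gene start and 1392 bp from the nearest start of any annotated Hdac1 transcript. It was present in E14 as well as in the clones, with the dominant TSS on the base at 129518910 for E14 and A1, and on 129518913 for C7.

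The histone chaperone genes Rbbp4 and Rbbp7 each had a broad promoter cluster with a short one beside it. The broad Rbbp4 cluster (ENSMUSG00000057236.10, minus strand, chr4:129335227-129335372) had an interquantile width of 107 bp in each line, the widest of all 44 clusters, and its dominant TSS was at 129335309 in E14 and C7 and at 129335303 in A1. The short cluster, at chr4:129335396-129335404, changed its dominant TSS from 129335404 in E14 to 129335396 in both clones, that is from the first to the last base of the cluster in the direction of transcription. On the opposite strand, 244 bp upstream of the Rbbp4 start, a cluster with no annotated gene on its strand lay at chr4:129335606-129335651, with its dominant TSS at 129335614 and a width of 36 bp in every line. In the last exon of Rbbp4, exon 12, a 3′ UTR cluster at chr4:129309861-129309881 had a width of 3 bp in E14, 6 bp in A1 and 5 bp in C7.

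Rbbp7 (ENSMUSG00000031353.13) had its dominant TSS exactly on the annotated start (162760402) in the 3 lines, within the cluster chrX:162760357-162760557. Its interquantile width was 77 bp in E14, 84 bp in A1 and 82 bp in C7. The short cluster at chrX:162760671-162760672, still in exon 1, had its dominant TSS on the first base in E14 and A1 and on the second in C7.

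Chd4 (ENSMUSG00000063870.12, chr6:125095981-125130591, plus strand) had its main promoter cluster at chr6:125096080-125096218, although in C7 this began 3 bp later. E14, A1 and C7 shared the dominant TSS at 125096176, 195 bp from the gene start and 1 bp from the start of an annotated transcript. Its interquantile width was 6 bp in E14, 7 bp in A1 and 28 bp in C7. In E14 and A1 this was the narrowest of the main promoters of the 9 genes with a cluster, and in C7 only the Hdac1 promoter was narrower. The region in C7 reached 22 bp further upstream than in E14 and ended on the same base.

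**Figure D2:**
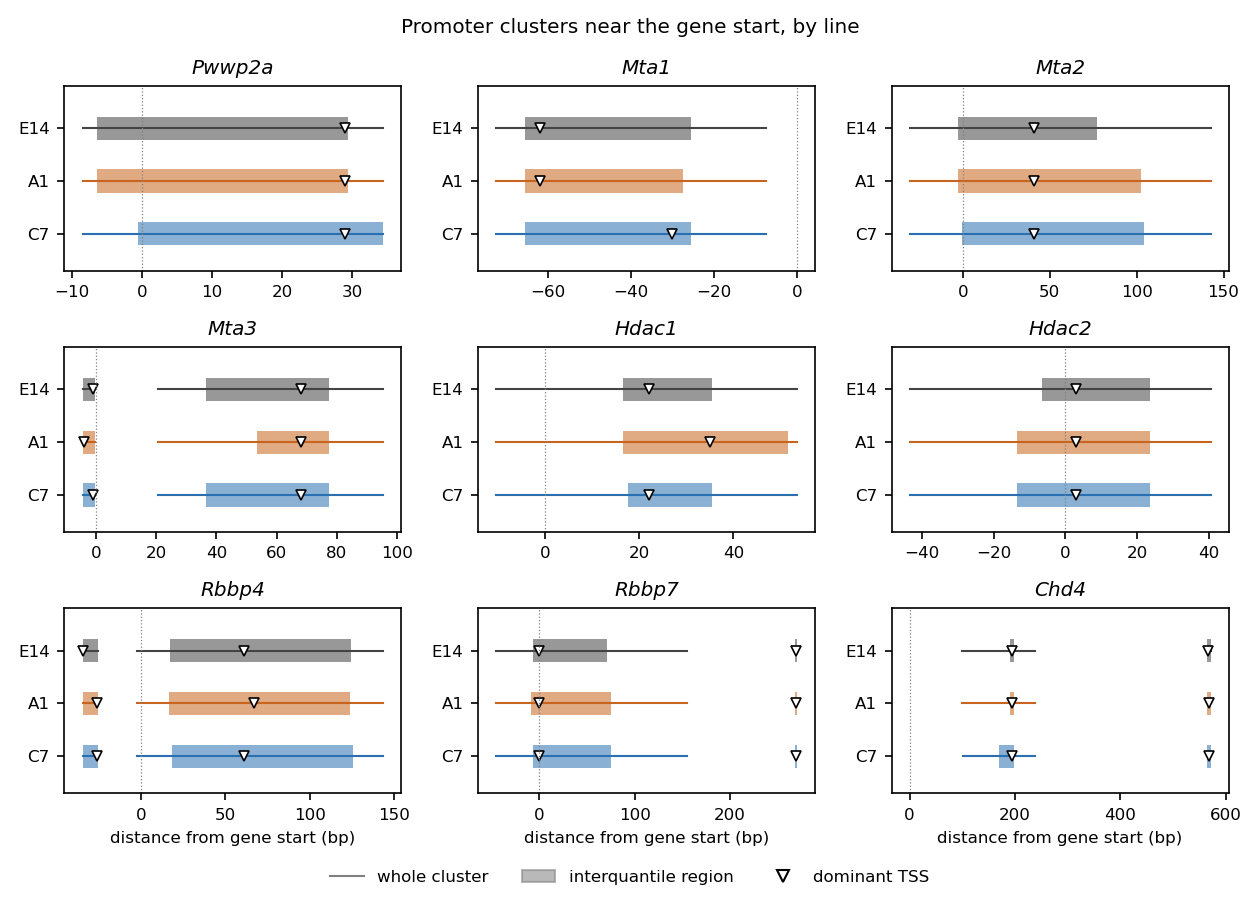
Promoter clusters near the start of the 9 genes that had one, with the distance from the annotated gene start in bp (x axis, downstream positive) and the 3 lines (rows); thin lines are whole clusters, blocks are interquantile regions and triangles are dominant TSSs. The dominant TSS of Mta1 sits 32 bp further downstream in C7, that of Hdac1 13 bp further downstream in A1, and the Chd4 region widens from 6 bp in E14 to 28 bp in C7.

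The bases around the main promoter starts of the 9 genes are shown because the moves of the dominant TSS can be read in them. Each runs from 20 bases before the dominant TSS to 9 bases after it, on the strand of the gene, and capitals mark the base before the dominant TSS and the dominant TSS itself. They were taken from RefSeq promoter windows (GRCm38.p6) or GENCODE M21 transcripts.
Pwwp2a promoter, E14 and A1 and C7, chr11:43682007-43682036: agggaggggaaggcctcggGAtcccagccg
Mta1 promoter, E14 and A1, chr12:113098196-113098225: gcccgcggccgctcctcctCTtcctctccc
Mta1 promoter, C7, chr12:113098228-113098257: ccgcgccgcggccctcccgTCcctgcgcgg
Mta2 promoter, E14 and A1 and C7, chr19:8941896-8941925: ggaagtggccgatctgcggGGtcttgctct
Mta3 promoter, E14 and A1 and C7, chr17:83706211-83706240: ggcggcgggcggggctcggCTcgggctccg
Hdac1 promoter, E14 and C7, chr4:129542682-129542711: gcccctccccctggtcggaCGccgtaagga
Hdac1 promoter, A1, chr4:129542669-129542698: gtcggacgccgtaaggagcCGcgggcgggc
Hdac2 promoter, E14 and A1 and C7, chr10:36974527-36974556: cccggaggcctacccctgcCGagtgtcgcg
Rbbp4 promoter, E14 and C7, chr4:129335300-129335329: ggccgcgcgcgcggagtggAGcgctcgtag
Rbbp4 promoter, A1, chr4:129335294-129335323: gcgcgcggagtggagcgctCGtagcctccc
Rbbp7 promoter, E14 and A1 and C7, chrX:162760382-162760411: gggcggctgcgcctgcgctCAgctgcctgg
Chd4 promoter, E14 and A1 and C7, chr6:125096156-125096185: gcgacgccggagccggagcCAttttccccc
At most promoters initiation falls on a purine after a pyrimidine, and 74.4% of the 17614 E14 promoter clusters with readable sequence had such a pair. In E14 the main promoters of Hdac1, Hdac2, Rbbp7 and Chd4 had it, while those of Pwwp2a, Mta1, Mta2, Mta3 and Rbbp4 did not. Of all promoter clusters of the members, 17 of 19 could be read and 5 had the pair (29.4%). Without Chd4 it was 4 of 10 readable promoter clusters (40.0%). At Chd4 it was 1 of 7, the main promoter, and the other 6 lay inside coding sequence.

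RefSeq promoter windows were at hand for 7 of the genes, as 8 windows of 300 bases with 2 overlapping ones for Chd4. All 8 held a GC box, on either strand, where 35.7% of 32851 RefSeq promoter windows did. Those windows were not limited to genes with a cluster or to a like GC content. CCAAT was in 5 of the 8, at Pwwp2a, Rbbp4, Rbbp7 and Chd4, against 37.4% of all windows. The ETS core CCGGAA was in 1 window, that of Mta2, with 3 copies, against 14.9%. None held the TATA letters TATAAA (13.6% of all windows), the NRF1 core GCGCATGC (2.71%) or the YY1 core AAGATGGC (2.75%). The members' windows had a median GC content of 68.5% (57.0 to 81.0%) and a median of 33 CpG pairs, against 52.7% and 7 for all windows. Mta1 was at the upper end and the more upstream Chd4 window at the lower.

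For the main promoter of each gene, taken as its promoter cluster of greatest whole width in E14, the interquantile region was wider in both clones at 4 of 9 genes, Mta2, Hdac2, Rbbp7 and Chd4 (44.4%, interval 18.9 to 73.3%). Over 11016 protein-coding genes the share was 22.2%, inside the members' interval. None of the 9 was narrower in both clones, against 6.29%. The median width of the 9 was 40 bp in E14, 37 bp in A1 and 40 bp in C7, against 31, 32 and 32 bp over all coding genes, and the dominant TSS was the same in all lines at 6 of the 9 genes (66.7%), against 74.4%.

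Over all 19 promoter clusters of the members, 4 were wider in both clones (21.1%), against 16% of all promoter clusters, and 0 were narrower in both, against 5.1%. Their median width was 19 bp in E14, 24 bp in A1 and 19 bp in C7, next to 20 bp for all promoter clusters of E14. Of the 23 exonic clusters 2 were wider in both clones (8.7%), against 6.22%, and 0 were narrower, against 2.11%. These were the 3′ UTR cluster of Rbbp4 and the Chd4 cluster in exon 38, which was 1 bp wide in E14 and 10 bp wide in both clones. The median width of the exonic clusters was 7 bp in each line, against 3 bp for all exonic clusters of E14. Of the 23, 21 were at Chd4, whose own median was 7 bp in each line. The exonic clusters of Hdac1 and Rbbp4 were 4 bp and 3 bp wide in E14. Width was equal in the 3 lines at 27 of 44 member clusters (61.4%), against 59.4% of all shared clusters.

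Chd4, the remodeller that is absent from the PWWP2A complex, held most of the internal sites. It had 21 of the 23 exonic clusters of the members in E14 (91.3%), and its total was 30 in E14, 30 in A1 and 30 in C7. Of these, 28 lay in exons of its main transcript, in 16 of its 39 exons, with 23 in coding sequence, 3 in the 3′ UTR and 2 in the 5′ UTR. Exon 24 had 5 clusters, and exons 2 and 39 had 3 each. Among the 6 clusters in coding sequence that counted as promoter clusters, the one in exon 23 lay 20 bp from an annotated internal transcript start, and the others 353 to 489 bp. With a promoter window of 100 bp in place of 500 bp, 26 Chd4 clusters were exonic.

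Chd4 ranked 10 of 21951 protein-coding genes by exonic clusters in E14 and 17 by all clusters. The median gene with a cluster had 1 cluster in all and 0 exonic ones. Of the 938 genes with a cluster and a main transcript at least as long as that of Chd4, 7 had at least as many exonic clusters, and their median was 0. Of the 9 members with a cluster, Pwwp2a, Hdac1, Rbbp4 and Chd4 had at least 1 exonic or intronic cluster. This was 4 of 9 (44.4%, interval 18.9 to 73.3%). Among the 11457 coding genes with a cluster in E14 the share was 24.8%, inside that interval. The genes whose counts of promoter, exonic and intronic clusters over the 3 lines (9 counts) lay nearest to those of Chd4 were Rbm25, a splicing factor gene (Euclidean distance 3.32), Eif3a, a translation initiation factor gene (5.20), and Sptbn1, a spectrin gene (8.12). They had 22, 20 and 17 exonic clusters in E14.

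**Figure D3:**
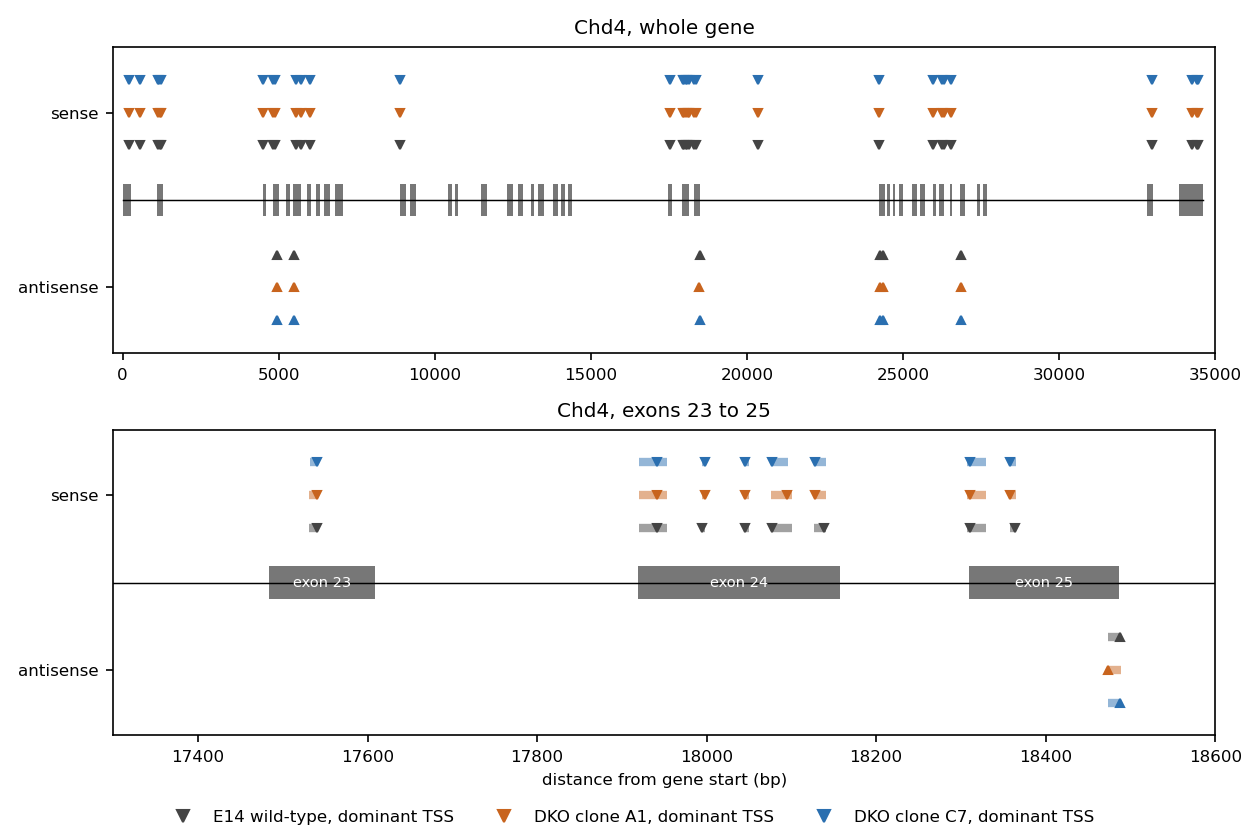
Dominant TSSs of the Chd4 clusters by distance from the gene start in bp (x axis), for the whole gene (top) and for exons 23 to 25 (bottom, with bars for interquantile regions); grey boxes are exons, and clusters on the strand of the gene are above and those on the opposite strand below. The 30 sense and 6 antisense clusters lie at nearly the same places in E14, A1 and C7, with 5 of them in exon 24.

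Exon 24 is shown as the exon with the most internal starts, and exon 4 as an exon with 2 starts that lay 4236 and 4307 bp from any annotated transcript start. Both are wholly coding, are given on the plus strand of mm10 from GENCODE M21 transcripts, and have the dominant TSSs of E14 in capitals. Exon 24 spans chr6:125113900-125114137 and exon 4 spans chr6:125100799-125100993.
Chd4 exon 24: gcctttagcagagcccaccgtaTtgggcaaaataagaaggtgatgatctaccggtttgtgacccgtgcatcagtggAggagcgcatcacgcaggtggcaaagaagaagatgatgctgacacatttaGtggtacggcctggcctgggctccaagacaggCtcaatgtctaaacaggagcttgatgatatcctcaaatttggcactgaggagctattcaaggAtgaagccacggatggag
Chd4 exon 4: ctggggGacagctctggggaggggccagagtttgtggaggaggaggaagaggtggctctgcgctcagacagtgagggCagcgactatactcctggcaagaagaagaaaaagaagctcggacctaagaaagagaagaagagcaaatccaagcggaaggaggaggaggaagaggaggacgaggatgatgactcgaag
The exon 24 sequence has a GC content of 50.8% and that of exon 4 55.4%. In exon 24 the dominant TSS of the first cluster stayed at 125113922 in all lines, and that of the third at 125114026. The second moved by 3 bp, from 125113976 in E14 to 125113979 in both clones, and the fourth was at 125114058 in E14 and C7 and at 125114076 in A1. The fifth lay at 125114120 in E14 and at 125114109 in both clones, 11 bp upstream. In exon 4 both dominant TSSs, at 125100805 and 125100876, were the same in all lines, and so were the widths of 41 bp and 21 bp.

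The bases at the internal starts differed from those at promoters. Only 1 of the members' 23 exonic clusters had a purine after a pyrimidine at the dominant TSS (4.35%), near the 10.5% of all exonic clusters in E14 and far below the 74.4% of promoter clusters. Instead, the base before the dominant TSS was G at 19 of the 23 (82.6%), where it was G at 72.1% of all exonic clusters and 14.2% of all promoter clusters. At 9 of the 19 the pair was GA, with 8 of these at Chd4 and 1 in exon 9 of Hdac1. The share of GA over all exonic clusters was not computed. At Chd4, G came before 17 of 21 exonic starts (81.0%) and before 4 of 7 promoter-category starts (57.1%). How bases added at the cap were treated is not given in the sources used here. Their effect on which base was called dominant was not tested.

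Antisense clusters were found inside 3 of the 9 genes with a cluster (33.3%, interval 12.1 to 64.6%). Of the 11457 coding genes with a cluster in E14, 16.2% had an antisense cluster, inside that interval. Antisense counts at the members were the same in the 3 lines. Mta3 had 1 in an intron, 44143 bp from its start. Rbbp4 had 1 in an intron, within the annotated gene Gm26722 of that strand. Chd4 had 6, 5 of them in coding exons (exons 4, 6, 26 with 2, and 35) and none in an annotated gene on that strand. A count of at least 6, the value of Chd4 itself, was reached by 0.489% of coding genes with a cluster. The dominant TSS of the nearest Chd4 sense cluster was 35 to 336 bp away. The antisense cluster of exon 4, at chr6:125100900-125100967, overlapped the second sense cluster of that exon in position and was 55 bp wide in E14 and 49 bp in both clones.

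The dominant TSS was on the same base in all lines for 26 of 44 clusters (59.1%, interval 44.4 to 72.3%), against 66.3% of all shared clusters. Among the other 18, A1 alone differed from E14 in 8, C7 alone in 5, and both clones had moved to the same base in 5 (11.4%, interval 4.95 to 23.98%), against 8.48% of all shared clusters. The shares of all shared clusters that moved in A1 alone or in C7 alone were not computed, and A1 had 2 libraries where C7 had 3. No cluster had 3 different bases. Chd4, which held 30 of the 44 clusters (68.2%), accounted for 10 of the 18. It also had 4 of the 5 that moved alike in both clones, and the short Rbbp4 promoter cluster was the fifth.

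Of the 18 clusters, 9 had a move of over 5 bp. These were the Mta1 and Hdac1 promoters, both Rbbp4 promoter clusters and 5 Chd4 clusters. In exon 2 of Chd4 E14 and A1 had the dominant TSS at 125097172, and C7 had it at 125097155. In exon 25 it was at 125114345 in E14 and at 125114339 in both clones. In exon 39, in the 3′ UTR, it was at 125130423 in E14 and C7 and 20 bp downstream in A1, and the remaining pair were the clusters of exon 24 given above. In 8 of the 18 the move was from one end of the cluster to the other. These clusters were 2 to 21 bp in whole width, and in a cluster of 2 bp any move is of this kind. The share over all moved clusters was not computed. A1 moved downstream in 8 and upstream in 5 clusters, and C7 in 6 and 4, so neither clone moved in a single direction. Shares of moves over 5 bp, and of each direction, were not computed over all shared clusters.

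**Figure D4:**
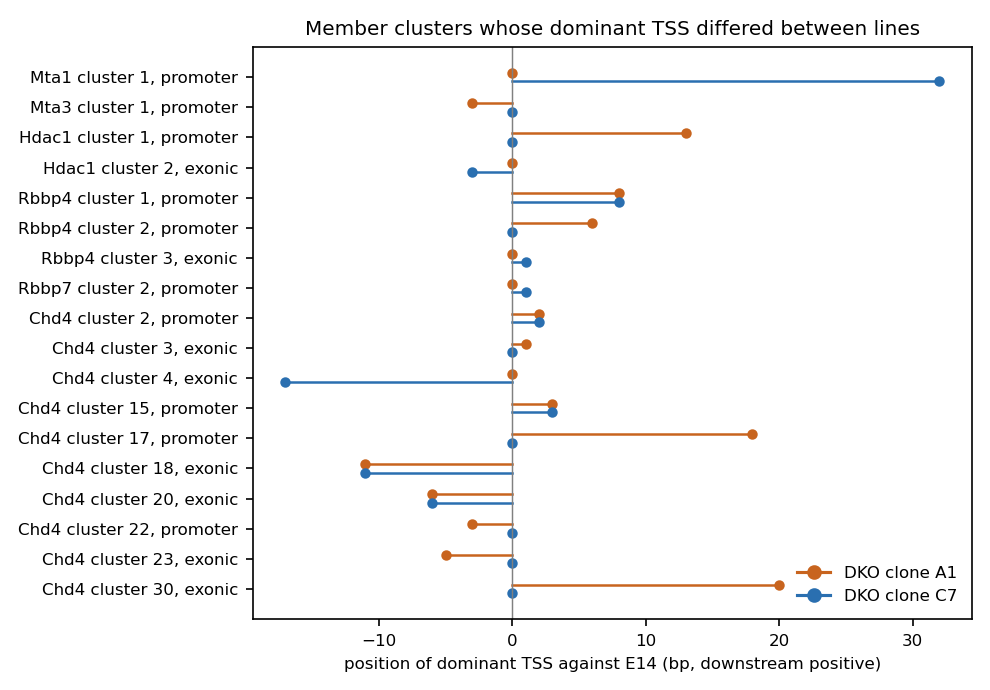
Position of the dominant TSS in clone A1 and clone C7 against E14, in bp along the direction of transcription (x axis, downstream positive), for the 18 member clusters in which it differed (y axis). In 5 clusters both clones share the moved base, in the other 13 only 1 clone differs, and the longest move is the 32 bp at Mta1 in C7.

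Genes of related complexes were counted in the same way. Of 7 other NuRD genes, 6 had a cluster, and the remodeller gene Chd5 had none. Their total was 28 clusters in E14 and 29 in each clone, with Gatad2b, the gene of a NuRD linker protein, holding the most (11, of which 6 were exonic). The extra cluster was at Gatad2a, the paralog of Gatad2b, a single base at chr8:69909418 in the 3′ UTR that was present in A1 and C7 and not in E14. Of all clusters merged over the lines, 0.444% were present in both clones and not in E14. The 11 genes of the SIN3 complex, which also uses HDAC1 and HDAC2, had 26 clusters in each line, with Arid4a holding 5. Within that total A1 lacked a coding cluster of Sin3b in exon 3, 2 bp wide, that E14 and C7 had. Clone A1 also had a coding cluster of Arid4b in exon 20, 1 bp wide, that the other lines did not. The share of such clusters over all clusters was not computed, and the depth behind them is unknown. The 8 genes of the CoREST and MiDAC complexes that were found had 28 clusters in each line, 13 of them at Phf21a.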

How the data were processed

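CAGE-seq was made from nuclear RNA (the labels give total RNA) of 3 E14, 2 clone A1 and 3 clone C7 libraries. Per the study's methods, the authors split reads by 3-letter barcodes, mapped them to mm10 with STAR 2.4.2a (version from the submitters' processing notes), end to end (how bases added at the cap were treated is not given in the sources used here), kept unique alignments, normalised 5′ end counts by a power law and called clusters with CAGEr. Unique mapping can leave out starts in repeated sequence. The replicates were merged per line. The deposited score of every cluster is 0 in all 98732 clusters, so only positions were used and no count or depth was at hand. The signal a cluster needed is not given in the sources used here, and a position shared by lines may come from unequal numbers of reads.

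The interquantile region (quantiles 0.1 and 0.9) was read from the blocks of each cluster. In 1202 clusters with 2 blocks of equal size the block holding the dominant TSS was taken, and 13 dominant TSSs lay outside their region. Genes came from GENCODE M21 (the study used a later release), and promoter, exon and intron were assigned in that order with a 500 bp window. Exon numbers and coding or UTR parts follow the main transcript. Lines were matched by clusters of the same strand sharing 1 bp or more. Intervals of shares are 95% Wilson intervals and cover counting error only, clusters are not replicates, and no p-value was computed, since each line has 1 merged track.

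The members and the lists (other NuRD, SIN3, CoREST and MiDAC genes, cell type markers) were chosen with earlier results of these data known. The rule for naming took all 10 members, the main promoter of each, each cluster absent from a line or with a dominant TSS moved by over 5 bp, any coding cluster of Pwwp2a or Pwwp2b (there was none), the 3 coding genes nearest to Chd4 by counts, and of the other lists the gene with most clusters and any with a gained or lost one. Further sites of the members, and Chd5, Sin3b and Arid4b, were named after their values were seen. Mideas was not found by symbol in the annotation. Sequences came from RefSeq promoter windows and GENCODE transcripts, which were equal in 1067 of 1067 windows held by both. The rules for category, overlap and interquantile region were tested on simulated clusters. Alternatives were the gene window, strand, cluster position, promoter window, transcript set, overlap rule, minimum width and tolerance of the dominant TSS. Python 3.11.15, NumPy 2.4.6, SciPy 1.17.1 and Matplotlib 3.10.9 were used.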

Additional observations from a re-analysis of the deposited data

Results flagged for a closer look

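The Hdac1 promoter cluster was the only one of the 44 member clusters whose interquantile width changed in opposite directions in the clones. Against E14 it was 16 bp wider in A1 and -1 bp, that is 1 bp narrower, in C7. The difference was not tested, since each line has 1 merged track, and the change in C7 is a single base.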

How the results depend on the processing

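Of 66 recomputed values, 55 were called the same and 11 moved. A count was called the same within 1.5 times the reported one, a share within its interval, and a median width only when equal. Within these limits the order of categories could change. With a promoter window of 1000 bp, E14 had 25 promoter and 17 exonic clusters, in place of 19 and 23. The share of member clusters with the same dominant TSS in all lines rose from 59.1% to 79.5% when positions within 5 bp counted as the same. With clusters of an interquantile width of at least 3 bp only, 1 member cluster was gained in both clones in place of 0, the Chd4 cluster of exon 38, which was 1 bp wide in E14 and so was left out of that line by the limit itself. The median promoter width was 33 bp in each line over whole clusters, and 30 bp in E14, 35 bp in A1 and 35 bp in C7 with a promoter window of 100 bp. With that window the exonic median was 6 bp in E14, 6 bp in A1 and 5 bp in C7. No paired analysis was possible because the merged tracks carry no replicate numbers, and for the same reason no replicate could be left out. The positions show no level of expression, and clusters below the calling limit were not seen, so the absence of a cluster at Pwwp2b does not show that the gene was silent.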
